A study of Homo sapiens with 4 samples.

Results

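T24 is an established human bladder carcinoma cell line. In these data its transcripts were measured by RNAseq after stable lentiviral expression of the TET1 catalytic domain (TET1-CD), a FLAG-tagged stretch of TET1 cloned into a pCDH vector, and in control cells that carried the empty vector (EV). Both kinds of cells were grown in RPMI with 10% FCS and kept after puromycin selection, the labels name the source of all 4 libraries T24_induced without saying what was induced, and 2 libraries were made from each. No cloning of the transduced cells is described, the cells carried the construct on top of their own TET1, and whether the numbered libraries came from separate cultures is not stated, so the p-values measure the spread between these libraries only.

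The genes described here are 10 of the 57879 genes in the files, chosen by symbol as the enzymes and partners that write, keep or remove DNA methylation. They are the DNA methyltransferases DNMT1, DNMT3A and DNMT3B, the maintenance partner UHRF1, the dioxygenases TET2 and TET3, the glycosylases TDG and MBD4, and the isocitrate dehydrogenases IDH1 and IDH2. The files list 107 transcripts for them, and their estimated counts were summed per gene. TET1 itself is no member and is given as the check of the labels.

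DNA methylation is placed on cytosines that precede guanines. DNMT3A and DNMT3B methylate unmethylated sites, whereas DNMT1, brought to newly copied DNA by UHRF1, restores the mark on the daughter strand after replication. TET enzymes oxidise 5-methylcytosine to 5-hydroxymethylcytosine and further, with iron and 2-oxoglutarate as cofactors, and TDG excises the most oxidised forms so that base excision repair can refill the site. MBD4 removes thymine or uracil mispaired with guanine at CpG sites. IDH1, in the cytosol, and IDH2, in mitochondria, make 2-oxoglutarate from isocitrate. TET1, TET2 and TET3 share the catalytic domain, and the cloned TET1-CD is the part of TET1 that holds it.

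Start regions of the 4 members called by the test, and of TET1 and TET3 beside TET2, are shown because their CpG sites are the letters on which this enzyme family acts. The windows come from RefSeq and run from 250 bases before to 50 bases after an annotated start. Each sequence matched a single place on its gene's chromosome in GRCh37, whose coordinates are given, and capitals mark each CpG.
DNMT1, chr19:10305580-10305879, minus strand: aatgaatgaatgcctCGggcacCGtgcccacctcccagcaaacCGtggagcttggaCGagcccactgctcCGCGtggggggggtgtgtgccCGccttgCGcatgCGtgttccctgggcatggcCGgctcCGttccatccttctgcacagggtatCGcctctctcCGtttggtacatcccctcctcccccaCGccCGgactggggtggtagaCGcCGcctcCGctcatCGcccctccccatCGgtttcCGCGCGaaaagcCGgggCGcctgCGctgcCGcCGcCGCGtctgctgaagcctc
UHRF1, chr19:4909263-4909562, plus strand: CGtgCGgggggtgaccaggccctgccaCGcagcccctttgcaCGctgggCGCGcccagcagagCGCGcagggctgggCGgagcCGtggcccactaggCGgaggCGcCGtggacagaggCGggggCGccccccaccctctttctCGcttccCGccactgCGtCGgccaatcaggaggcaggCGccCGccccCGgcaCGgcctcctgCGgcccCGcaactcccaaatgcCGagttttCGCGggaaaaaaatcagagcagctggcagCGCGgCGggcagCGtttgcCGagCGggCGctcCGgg
TET2, chr4:106067783-106068082, plus strand: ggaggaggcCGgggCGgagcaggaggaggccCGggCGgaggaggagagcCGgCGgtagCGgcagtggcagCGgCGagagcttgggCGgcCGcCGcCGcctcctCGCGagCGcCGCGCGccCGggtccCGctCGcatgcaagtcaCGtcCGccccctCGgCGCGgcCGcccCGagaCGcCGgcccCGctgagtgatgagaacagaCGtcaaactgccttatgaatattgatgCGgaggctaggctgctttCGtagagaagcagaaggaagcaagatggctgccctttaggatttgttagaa
TET3, chr2:74211787-74212086, plus strand: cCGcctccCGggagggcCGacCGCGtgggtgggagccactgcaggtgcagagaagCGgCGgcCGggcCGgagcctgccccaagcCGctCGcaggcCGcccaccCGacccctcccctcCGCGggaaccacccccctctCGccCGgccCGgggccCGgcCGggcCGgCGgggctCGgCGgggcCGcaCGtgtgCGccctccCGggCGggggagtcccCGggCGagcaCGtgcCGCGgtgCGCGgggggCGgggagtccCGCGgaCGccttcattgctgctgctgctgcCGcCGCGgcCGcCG
TET1, chr10:70319844-70320143, plus strand: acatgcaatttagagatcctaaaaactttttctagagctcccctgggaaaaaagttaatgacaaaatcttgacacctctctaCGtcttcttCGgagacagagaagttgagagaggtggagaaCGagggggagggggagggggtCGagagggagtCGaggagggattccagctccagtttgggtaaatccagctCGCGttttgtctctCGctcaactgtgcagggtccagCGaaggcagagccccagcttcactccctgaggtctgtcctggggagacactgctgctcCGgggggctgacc
IDH2, chr15:90643804-90644103, minus strand: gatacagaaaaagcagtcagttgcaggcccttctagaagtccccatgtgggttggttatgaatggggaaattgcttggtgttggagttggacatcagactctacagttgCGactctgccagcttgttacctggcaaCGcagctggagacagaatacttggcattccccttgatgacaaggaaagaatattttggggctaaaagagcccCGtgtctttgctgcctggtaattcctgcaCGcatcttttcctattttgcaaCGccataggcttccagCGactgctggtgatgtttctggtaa

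The windows differ in CpG number. TET3 had 45 CpG, UHRF1 36, TET2 35 and DNMT1 30, each above the upper quartile of 28 over all 35116 windows in the table. TET1 had 10 and the IDH2 window 6, below the median of 14. All 10 members had at least 1 window. The 11 windows within 100 bases of a named transcript's start covered 9 members, and 10 of these 11 were above that median. DNMT3B had no window so placed, and the window it had held 3 CpG. The DNMT1, UHRF1, TET2, TET3 and TET1 windows end 50 bases after the start of the transcripts ENST00000359526, ENST00000262952, ENST00000380013, ENST00000409262 and ENST00000373644. These starts are those of GENCODE release 44, except for UHRF1, which was placed from the deposited annotation. The deposited gene spans, to which the counts belong, begin at 74229840 for TET3 and 70320413 for TET1, downstream of the windows shown. The most abundant DNMT1 transcript, ENST00000340748, starts 182 bases upstream of ENST00000359526, within the window. The IDH2 window belongs to a downstream start of that gene, and ENST00000540499 begins 74 bases upstream of the window's start position. No window covered the start of the main IDH2 transcript, ENST00000330062. Of 3 motifs searched on both strands, GGGCGG was found 5 times in the TET2 window, 3 times in that of TET3 and 2 times in that of UHRF1. GCGGGAA was found 2 times at UHRF1 and 1 time at TET3, and CCAAT 1 time at UHRF1. None of these letters was in the DNMT1, TET1 or IDH2 windows. GGGCGG was in 45% of all windows, CCAAT in 34.6% and GCGGGAA in 6.55%, and GGGCGG and GCGGGAA can share bases. The files hold no methylation values, so the windows carry sequence only.

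The libraries held 17442143 to 20295266 estimated fragments, and the totals of the groups overlapped. TET1 had 111 and 83 counts in EV libraries and 2939 and 3310 in TET1-CD libraries. For TET1 the log2 fold change reached 5.02 (standard error 0.08, 95% interval 4.84 to 5.21, edgeR adjusted p = 4.90e-10), which matches the labels. KRT7, KRT8, KRT18, CD44 and VIM each had at least 10759 counts in every library, whereas KRT5 and KRT20 had 0, and the uroplakins UPK1A, UPK1B, UPK2 and UPK3A had at most 6. The cells thus carried keratins of simple epithelium together with VIM, and little or none of the uroplakin and KRT20 transcripts of differentiated urothelium. Endothelial markers summed to 0.692 to 1.17 CPM (counts scaled to the library total after TMM normalization), and of the blood cell markers, PTPRC, CD3E and HBB each had at most 2 counts, whereas CD14 had 13 and 15 counts in EV libraries and 8 and 12 in TET1-CD libraries and was not called. Of the 17 bladder markers, 10 were tested and 7 were called. KRT7, KRT18, FOXA1 and GATA3 were higher, GATA3 with 19 and 19 counts in EV libraries and 46 and 44 in TET1-CD libraries, and ELF3, CD44 and VIM were lower. This is 70% of the list beside 19.7% of all genes tested, and the summed level of the list was 7162 and 7514 CPM in EV against 6674 and 6628 in TET1-CD. The part of these marker differences in the results below was not tested. In a bulk sample, fewer cells expressing a gene and less RNA per cell cannot be told apart.

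All 10 members passed the filter on low counts and were compared with edgeR's quasi-likelihood test, with p-values adjusted over the 14573 genes tested. A gene is called here at an adjusted p under 0.05. By this rule 4 members were called, against 19.7% of all genes tested. DNMT1, UHRF1 and IDH2 rose (10.0% of all genes were called higher), and TET2 fell (9.61% were called lower). None of the 4 reached a fold change of 2, as 3.77% of all genes did with a call. An unadjusted p under 0.05 was reached by 5 members, the additional one being TET3, and by at least the 19.7% of all genes that were called. The exact share of all genes at this unadjusted threshold was not computed. The libraries of the groups did not overlap for 6 members, 4 with TET1-CD higher and 2 with it lower, and this was so for 61.0% of all genes tested. The median log2 fold change of the members was 0.04, beside 0.001 over all genes tested.

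**Figure D1:**
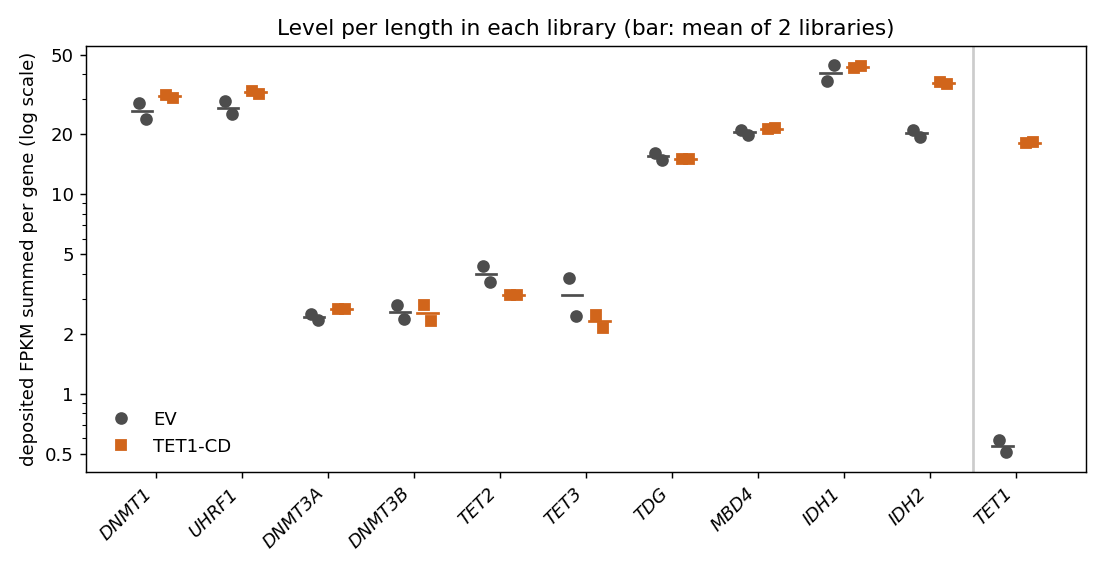
FPKM values, the deposited measure scaled to transcript length and library size, summed per gene and drawn on a log axis for each EV library (circles) and each TET1-CD library (squares), with the mean of each pair as a bar. IDH2 separates by most among the members, from 19.5 and 20.98 (EV) to 35.7 and 36.3 (TET1-CD), while TDG, MBD4 and DNMT3B keep nearly the same height and TET1 goes from under 1 to about 18.2.

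Both maintenance genes rose. DNMT1, on the minus strand of chromosome 19 (chr19:10244021-10341962 of GRCh37, as for all genes below), had 137 and 115 CPM in EV libraries and 152 and 151 in TET1-CD libraries. The groups did not overlap, and the EV libraries were 1.2 times apart whereas the TET1-CD libraries nearly coincided. The difference was 1.2-fold, a log2 fold change of 0.27 (standard error 0.08, 95% interval 0.09 to 0.44, edgeR adjusted p = 0.0392). UHRF1, which reads hemimethylated CpG and lies on the same chromosome (chr19:4903092-4962165, plus strand), had 113 and 98.6 CPM in EV libraries and 128 and 122 in TET1-CD libraries. Here, too, the groups did not overlap, and EV replicate 2 was the lowest library. The log2 fold change was 0.23 (standard error 0.07, 95% interval 0.07 to 0.39, edgeR adjusted p = 0.0474), or 1.17-fold. The ratio of UHRF1 to DNMT1 in FPKM stayed between 1.02 and 1.05 in all 4 libraries.

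These calls lay close to the threshold, and the size of both differences moved most with the EV library left out. Without TET1-CD replicate 1 or 2, the log2 fold change was 0.26 or 0.27 for DNMT1 and 0.2 or 0.27 for UHRF1. Neither gene was called in these fits, each of which leaves a single TET1-CD library. Without EV replicate 2, DNMT1 had a log2 fold change of 0.14 in place of 0.27. UHRF1 then had 0.13 in place of 0.23 and was not called. Without EV replicate 1 the values were 0.40 and 0.33. DESeq2 gave UHRF1 an adjusted p of 0.0728. CTD-2369P2.2 and S1PR2 overlap DNMT1 on its strand, and their own counts were 1.6% and 0.76% of those of DNMT1.

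The de novo methyltransferases were measured at a far lower level and did not pass the test. DNMT3A, on chromosome 2 (chr2:25455845-25565459, minus strand), had 9.98 and 8.67 CPM in EV libraries and 9.80 and 9.03 in TET1-CD libraries. The groups overlapped, with a log2 difference of 0.01 (95% interval -0.28 to 0.30, edgeR adjusted p = 0.972). DNMT3B, on chromosome 20 (chr20:31350191-31397162, plus strand), had 11.5 and 9.88 CPM in EV libraries and 11.3 and 9.54 in TET1-CD libraries. Within each group replicate 1 was the higher library, and the groups overlapped. The log2 difference was -0.04 (95% interval -0.34 to 0.26, edgeR adjusted p = 0.878). The interval of DNMT3A holds the point estimate of DNMT1, and that of DNMT3B ends just below it. Their sign changed with the library left out, and log2 values lay between -0.09 and 0.11 for DNMT3A and between -0.16 and 0.08 for DNMT3B.

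TET2 fell. This dioxygenase, on chromosome 4 (chr4:106067032-106200973, plus strand), had 42.1 and 35.5 CPM in EV libraries and 30.3 and 30.1 in TET1-CD libraries. The TET1-CD libraries agreed closely with each other and were below both EV libraries. The log2 fold change was -0.36 (standard error 0.09, 95% interval -0.57 to -0.16, edgeR adjusted p = 0.0216), which is 0.777 of the EV level. TET3, its paralog on chromosome 2 (chr2:74229840-74335303, plus strand), had 38.2 and 25.9 CPM in EV libraries and 25.5 and 21.8 in TET1-CD libraries. Both TET1-CD values were below both EV values, but TET1-CD replicate 1 was only just below EV replicate 2, and the EV libraries were 1.48 times apart, the widest gap of any member. The log2 difference was -0.45 (standard error 0.16, 95% interval -0.80 to -0.09) and was not called, with an unadjusted p of 0.0183 and an adjusted p of 0.0764 from edgeR.

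The library left out decided both values in part. Without TET1-CD replicate 1 or 2, which leaves a single TET1-CD library, TET2 was not called, at log2 fold changes of -0.37 and -0.36. Without EV replicate 1, the log2 difference of TET3 shrank to -0.14 and that of TET2 to -0.24, whereas without EV replicate 2 they were -0.70 and -0.48. Of 11 alternatives TET3 was called in 3. Among them was the fit without EV replicate 2, which leaves a single EV library. Another was the fit with no filter on low counts (edgeR adjusted p = 7.83e-05), where 14.3% of 25160 genes were called.

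With TET1 included, the make-up of the TET transcripts differed between the groups. TET1 gave 6.39% and 7.25% of the counts of the 3 TET genes in EV libraries and 75% and 76.5% in TET1-CD libraries. Per length, the FPKM of TET1 was 0.072 and 0.084 of that of TET2 and TET3 together in EV and 3.21 and 3.46 times that sum in TET1-CD cells. The FPKM of TET1 is given for its whole transcript, which GENCODE release 44 annotates with 9612 bases. The length behind the deposited FPKM may differ from this. The files do not separate the cloned domain from the endogenous RNA, so these ratios describe the files' values and not transcript numbers. TET2 and TET3 summed to 8.18 and 6.10 FPKM in EV libraries and 5.62 and 5.28 in TET1-CD libraries.

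The glycosylases of the demethylation route had close values in all 4 libraries. TDG, on chromosome 12 (chr12:104359582-104382652, plus strand), had 43.1 and 44.3 CPM in EV libraries and 43.9 and 45.2 in TET1-CD libraries. These 4 values overlapped, and the log2 difference was 0.03 (95% interval -0.12 to 0.18, edgeR adjusted p = 0.809). MBD4, on chromosome 3 (chr3:129149787-129158878, minus strand), had 47.5 and 46.7 CPM in EV libraries and 48.4 and 48.7 in TET1-CD libraries. Its TET1-CD libraries were above its EV libraries by a narrow margin. The log2 difference was 0.04 (95% interval -0.10 to 0.19, edgeR adjusted p = 0.697). For both genes the interval ends below the point estimate of DNMT1.

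IDH2 rose by most among the members. It lies on chromosome 15 (chr15:90626277-90645736, minus strand) and had 835 and 668 counts in EV libraries and 1209 and 1320 in TET1-CD libraries. After scaling, these were 41.2 and 38.6 CPM in EV libraries and 68.9 and 67.3 in TET1-CD libraries. Both TET1-CD libraries were far above both EV libraries, and replicates differed by far less than the groups. The log2 fold change was 0.77 (standard error 0.07, 95% interval 0.62 to 0.91, edgeR adjusted p = 4.67e-05), or 1.70-fold. It was called in all 11 alternatives tested, with log2 fold changes of 0.72 to 0.81 and adjusted p-values of 2.15e-21 to 0.00209.

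IDH1, the cytosolic paralog on chromosome 2 (chr2:209100951-209130798, minus strand), had 86.5 and 104 CPM in EV libraries and 100 and 103 in TET1-CD libraries. EV replicate 1 was the low library, and EV replicate 2 was the highest of all 4. The log2 difference was 0.10 (95% interval -0.08 to 0.28, edgeR adjusted p = 0.439). Without EV replicate 1 it was -0.04, and without EV replicate 2 it was 0.23, each with a single EV library left. The ratio of IDH2 to IDH1 in FPKM was 0.569 and 0.439 in EV libraries and 0.849 and 0.813 in TET1-CD libraries. IDH1 thus stayed the more abundant transcript in every library. The antisense gene IDH1-AS1 had 4 to 11 counts, 0.341% of those of IDH1.

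**Figure D2:**
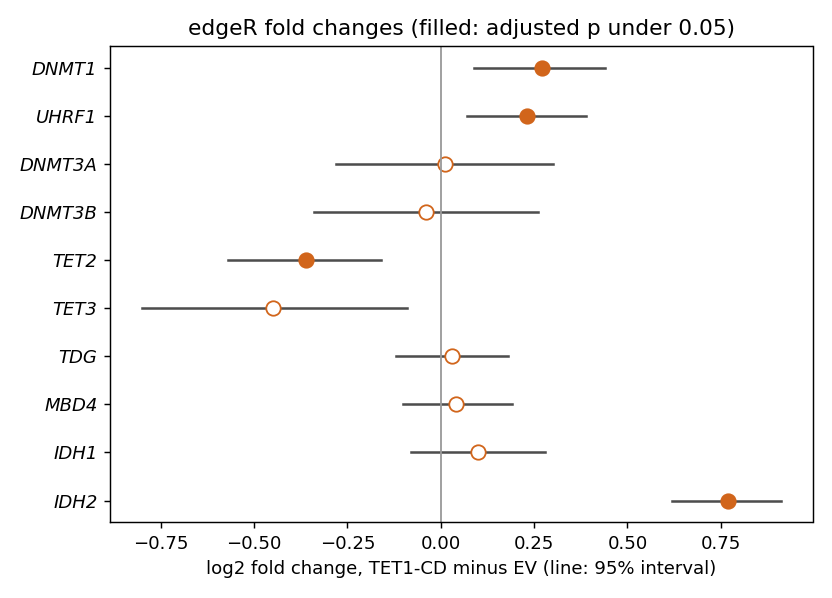
Log2 fold changes of the 10 members (TET1-CD minus EV, edgeR), with 95% intervals as lines, and filled points for an adjusted p under 0.05. IDH2 at 0.77 stands apart from DNMT1 at 0.27 and UHRF1 at 0.23, TET2 at -0.36 is the filled point below 0, and the widest interval is that of TET3.

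**Figure D3:**
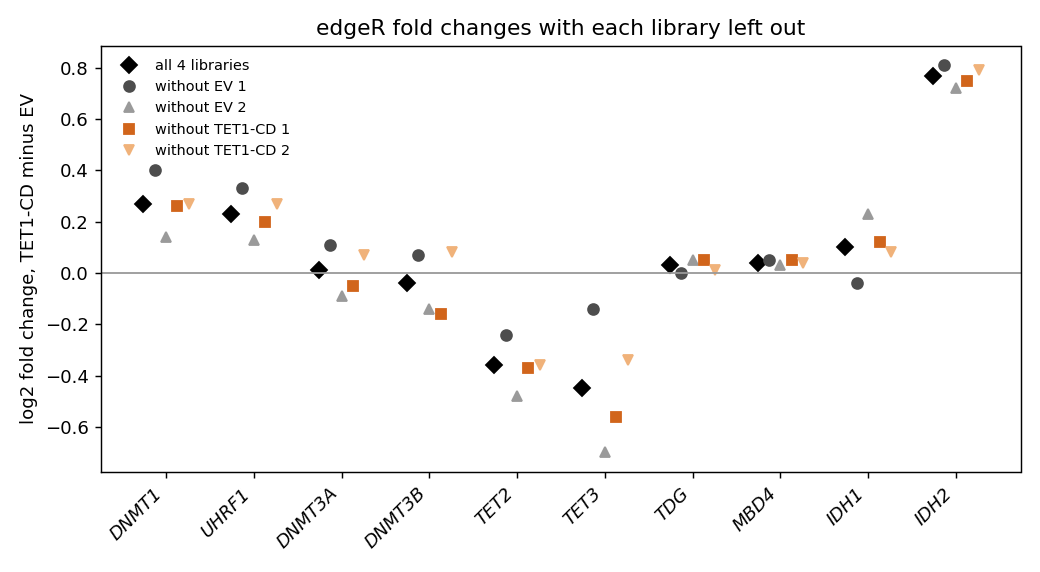
Log2 fold changes of the members (TET1-CD minus EV, edgeR) from all 4 libraries (diamonds) and with each library left out in turn. IDH2 stays between 0.72 and 0.81, whereas TET3 ranges from -0.70 to -0.14, with its extremes where an EV library is left out.

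The members fell into an upper and a lower range of levels per length. In EV cells IDH1 was highest, at 40.6 ± 5.2 FPKM (SD, n = 2), followed by UHRF1 at 27.2 ± 2.9 and DNMT1 at 26.3 ± 3.3, whose libraries overlapped. MBD4 at 20.4 ± 0.86 and IDH2 at 20.2 ± 1.1 overlapped as well, and TDG came next at 15.5 ± 0.93. Far below were TET2 at 4.0 ± 0.53, TET3 at 3.14 ± 0.94, DNMT3B at 2.58 ± 0.29 and DNMT3A at 2.44 ± 0.12 FPKM. In this lower group each gene overlapped with the next in the order.

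In TET1-CD cells the order was the same at both ends of the upper range but not within it. IDH1 had 43.3 ± 0.74 FPKM (SD, n = 2), and IDH2 at 36.0 ± 0.47 now stood above UHRF1 at 32.4 ± 0.83 and DNMT1 at 30.9 ± 0.71. MBD4 at 21.4 ± 0.03 and TDG at 15.0 ± 0.01 followed, and the libraries of these 6 genes did not overlap between neighbours. TET2 had 3.14 ± 0.02 FPKM, above DNMT3A at 2.67 ± 0.01. DNMT3A, DNMT3B at 2.56 ± 0.33 and TET3 at 2.32 ± 0.26 overlapped each with the next. DNMT1 was 5.08 to 5.39 times the sum of DNMT3A and DNMT3B in EV and 5.75 and 6.09 times in TET1-CD cells.

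The transcripts behind these sums were examined next. Of the 107 member transcripts, 80 had a count in at least 1 library, 33 had enough counts for the test, and 23 held at least 10% of their gene's counts in some library. None of the 33 was called by edgeR after adjustment, where 0.00231% of all 43213 transcripts tested were called. This share was 1 transcript, ENST00000373644 of TET1 (edgeR adjusted p = 0.0208). The absence of calls therefore does not set the members apart from other transcripts. At an unadjusted p under 0.05 there were 4 of the 33, against 11.2% of all transcripts. DESeq2 called the same 4 transcripts after adjustment, and 6.39% of all transcripts. How fragments were divided between transcripts is not given in the sources used here, and the error of that division is not in the files. ENST00000264709 of DNMT3A and ENST00000265149 of TET2, below, were each listed near 0 in 1 EV library and at 117 or 114 counts in the other.

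Of these 4 transcripts, 3 were of IDH2, and together they held nearly all of its counts. ENST00000330062, the reference (MANE) transcript, had 472 and 381 counts in EV libraries and 619 and 669 in TET1-CD libraries. Its log2 difference was 0.62 (edgeR adjusted p = 0.222). ENST00000540499 begins 1773 bases downstream, near the window shown above, and encodes 1200 coding bases in place of 1356. It had 213 and 149 counts in EV libraries and 335 and 378 in TET1-CD libraries, a log2 difference of 1.01 (edgeR adjusted p = 0.238). ENST00000560061, annotated as a target of nonsense-mediated decay, had 149 and 138 counts in EV libraries and 255 and 273 in TET1-CD libraries, a log2 difference of 0.90 (edgeR adjusted p = 0.246). For each of the 3, the lower TET1-CD library was above the higher EV library. The share of the MANE transcript was 56.5% and 57% in EV libraries and 51.2% and 50.7% in TET1-CD libraries, and a test of whether the shares within IDH2 differed gave an adjusted p of 1 with edgeR and of 0.351 with limma's diffSplice.

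The other transcript was ENST00000446179 of IDH1, which was picked for description after its values were seen. It starts 613 bases downstream of the MANE transcript ENST00000345146 and has identical coding exons. It had 86.3 and 79.4 counts in EV libraries and 30.4 and 35.0 in TET1-CD libraries, while ENST00000345146 had 1632 and 1664 in EV libraries and 1692 and 1959 in TET1-CD libraries. The minor transcript was thus lower in both TET1-CD libraries, with a log2 difference of -1.33 (95% interval -2.13 to -0.53, edgeR adjusted p = 0.284), and 4.93% and 4.42% of IDH1's counts became 1.73% in each TET1-CD library. DESeq2 gave it an adjusted p of 0.0166. The test of shares within IDH1 gave an adjusted p of 1 with edgeR and of 0.144 with limma's diffSplice.

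Across the 9 members with at least 2 tested transcripts, edgeR's test of transcript usage called none, and none had an unadjusted p under 0.05, where 2.17% and 6.27% of the 9725 genes tested did. TET3 had 1 tested transcript, ENST00000409262, with 754 and 441 counts in EV libraries and 438 and 420 in TET1-CD libraries. UHRF1 and TDG were each carried by 1 transcript. ENST00000262952 of UHRF1 held 86.1% to 93.2% of its counts, and ENST00000392872 of TDG 89.9% to 95.8%. For MBD4 the 3 transcripts ENST00000429544, ENST00000507208 and ENST00000249910 kept their order in the EV and TET1-CD libraries apart from EV replicate 2, where the last exceeded ENST00000507208, with 147 against 136 counts.

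For DNMT1, the most abundant transcript was ENST00000340748, with 62.9% to 66.1% of the gene's counts in the 4 libraries. It starts 182 bases upstream of the MANE transcript ENST00000359526 and shares 40 of its 41 coding exon parts. ENST00000340748 had 1836 and 1247 counts in EV libraries and 1697 and 1881 in TET1-CD libraries, a log2 difference of 0.25 (95% interval -0.09 to 0.59) that was not called. The MANE transcript varied more within groups than between them, from 237 to 589 counts in EV and from 404 to 750 in TET1-CD cells. ENST00000540357 likewise had 138 and 305 counts in EV libraries and 362 and 285 in TET1-CD libraries.

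The remaining members showed how far single libraries set the estimates of transcripts. In DNMT3A, the MANE transcript ENST00000321117 had 63.7 and 132 counts in EV libraries and 142 and 129 in TET1-CD libraries. ENST00000264709, with identical coding exons and a start 665 bases upstream, had 117 counts in EV replicate 1, 0.06 in EV replicate 2, and 0.02 and 24.6 in TET1-CD cells. The short transcript ENST00000406659 held 6.04% to 11.9% of the gene. In DNMT3B, ENST00000348286, which lacks part of the coding exons, led in every library with 50.5% to 73.9%, above the MANE transcript ENST00000328111 with 23.6% to 35.4%. ENST00000353855 and ENST00000344505 each reached 10% in only 1 EV library.

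In TET2 the MANE transcript ENST00000380013, whose start window is shown above, held 76.6% and 69.7% of counts in EV libraries and 82% and 87.3% in TET1-CD libraries. It had 653 and 428 counts in EV libraries and 435 and 515 in TET1-CD libraries, so the groups overlapped in its counts. ENST00000540549, with the same coding exons and a start 583 bases upstream, had 152 and 46.2 counts in EV libraries and 75.8 and 44.9 in TET1-CD libraries. ENST00000265149, annotated as a target of nonsense-mediated decay, was listed with 114 counts in EV replicate 2 and under 1 count in the other 3 libraries. Without EV replicate 1, the test of transcript usage called TET2 (edgeR adjusted p = 0.0244), and EV replicate 2 was then the only EV library. The fall of TET2 is therefore a result of the summed counts, and it is not assigned to a transcript.

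**Figure D4:**
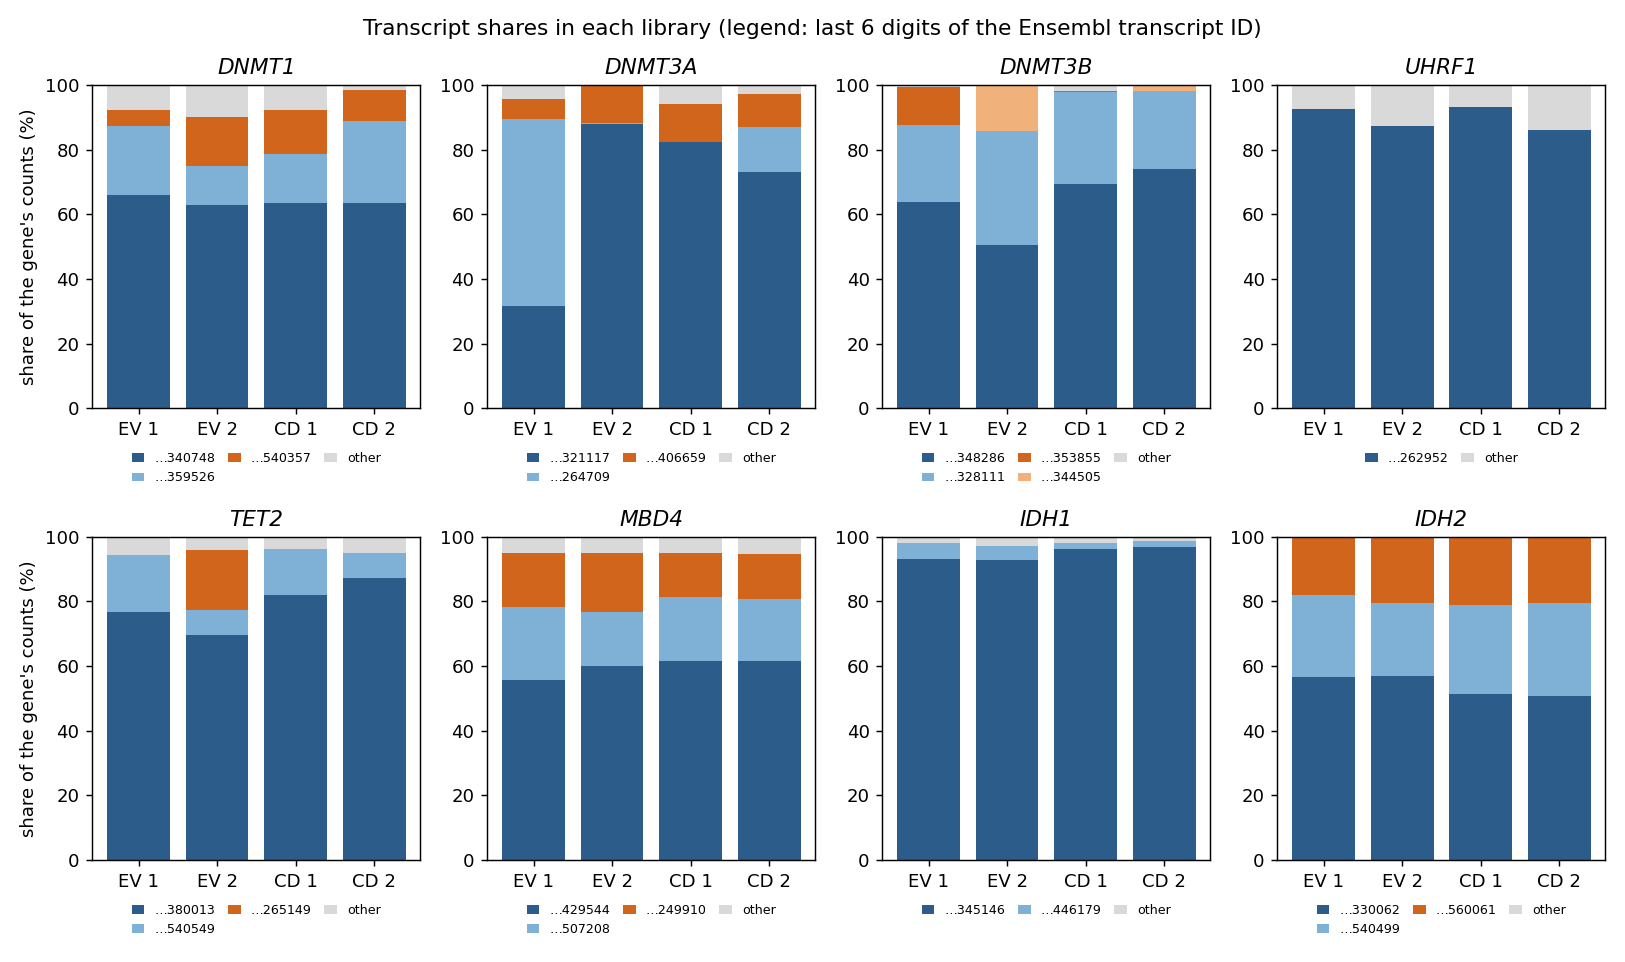
Share of each gene's counts (%) held by its main transcripts in EV replicates 1 and 2 and TET1-CD (CD) replicates 1 and 2, stacked by transcript with the last digits of its Ensembl identifier, and the rest in grey. The largest share of IDH2 goes from 56.5% and 57% (EV) to 51.2% and 50.7% (TET1-CD). That of MBD4 goes from 55.7% and 59.9% (EV) to 61.7% and 61.6% (TET1-CD). EV replicate 1 of DNMT3A and EV replicate 2 of TET2 each show a transcript nearly missing from the other EV library.

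Other genes of the pathway were read from 6 lists of 74 symbols written by role, of which 67 were tested. Of these, 11 were called, 6 higher and 5 lower, which is 16.4% beside 19.7% of all genes, and their median log2 fold change was 0.06 beside 0.001. Among 10 tested writers and maintenance partners, 2 rose and 1 fell. USP7, a deubiquitinase that binds DNMT1 and UHRF1, had 153 and 152 CPM in EV libraries and 179 and 181 in TET1-CD libraries (log2 fold change 0.24, edgeR adjusted p = 0.0111). HELLS, a chromatin remodeller needed for methylation of repeats, rose by 0.23 (edgeR adjusted p = 0.0343). EHMT2, a histone H3 lysine methyltransferase, fell by 0.29 on the log2 scale (edgeR adjusted p = 0.0408), but its adjusted p was 0.102 without EV replicate 1 and 0.121 with DESeq2. Of 9 methyl-CpG readers, 1 was called. ZBTB4, a zinc finger protein that binds methylated CpG, had a log2 fold change of -0.24 (edgeR adjusted p = 0.0151).

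Base excision repair, which refills the site after TDG has cut, had 16 tested genes and 1 call. FEN1, the flap endonuclease of the long-patch branch, rose by 0.28 on the log2 scale (edgeR adjusted p = 0.00915), with 150 and 161 CPM (EV) and 185 and 191 CPM (TET1-CD). Of 9 tested TET partners and regulators, 2 fell. CXXC5, a CXXC zinc finger protein linked to the turnover of TET2, had 92 and 78 counts in EV libraries and 33 and 22 in TET1-CD libraries. Its log2 fold change of -1.60 (standard error 0.26, edgeR adjusted p = 0.00248) was the only one past a fold change of 2 among the 11, and it was called in all 11 alternatives. OGT, the O-GlcNAc transferase that binds TET2 and TET3, had 254 and 234 CPM in EV libraries and 187 and 204 in TET1-CD libraries, a log2 fold change of -0.32 (edgeR adjusted p = 0.00717).

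In the metabolism of 2-oxoglutarate, succinate and fumarate, 2 of 13 tested genes rose and none fell, with a median of 0.13. OGDH, a subunit of the complex that consumes 2-oxoglutarate, had 64.6 and 67.4 CPM in EV libraries and 84.9 and 85.3 in TET1-CD libraries (log2 fold change 0.37, edgeR adjusted p = 0.00231). It was called in all 11 alternatives. IDH3A, the catalytic subunit of the mitochondrial NAD-dependent isocitrate dehydrogenase, rose by 0.19 (edgeR adjusted p = 0.0371), and its adjusted p was 0.122 with DESeq2. Among 10 tested genes of methyl donor supply, 1 rose and 1 fell. AHCY, which clears the S-adenosylhomocysteine that methyltransferases leave behind, had a log2 fold change of 0.30 (edgeR adjusted p = 0.00863). MTR, methionine synthase, had 147 and 124 CPM in EV libraries and 99.9 and 101 in TET1-CD libraries, a log2 fold change of -0.43 (edgeR adjusted p = 0.00427). Without TET1-CD replicate 1, OGDH and CXXC5 alone of the 11 were called, and without TET1-CD replicate 2, OGDH, MTR, OGT and CXXC5.

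**Figure D5:**
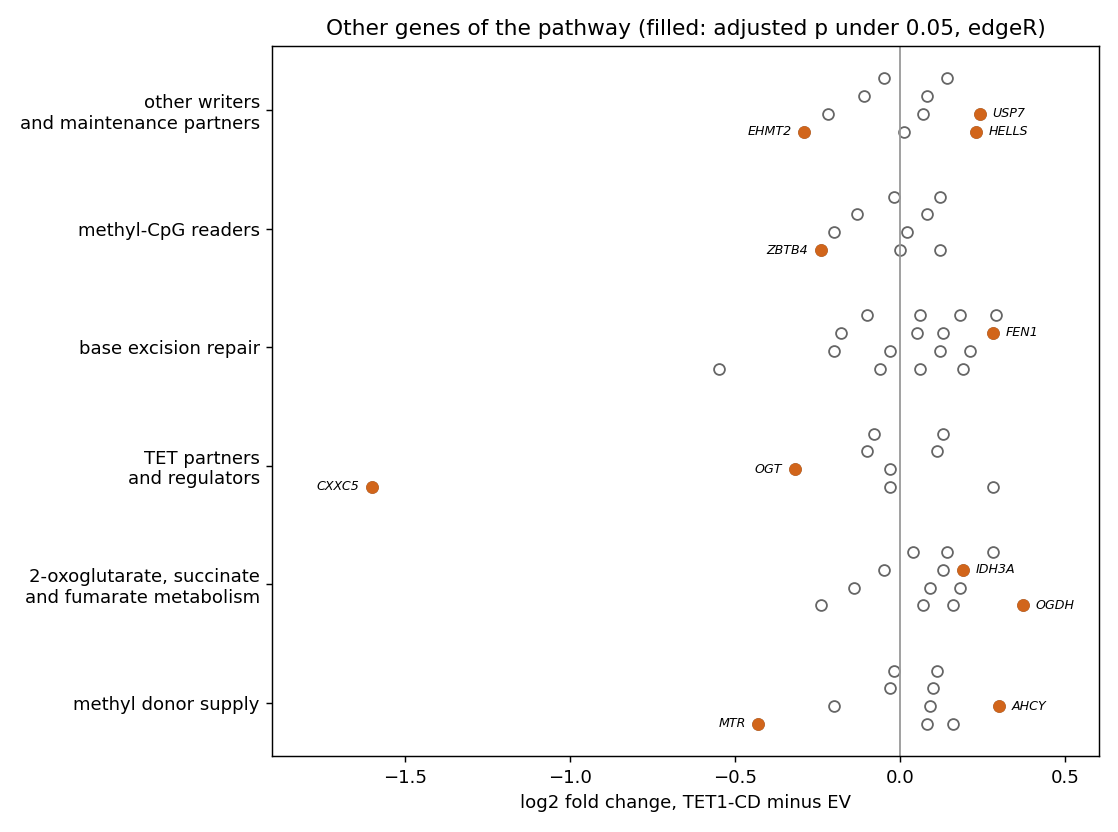
Log2 fold changes (TET1-CD minus EV, edgeR) of the 67 tested genes of 6 pathway lists, 1 point a gene, filled and named where the adjusted p was under 0.05. Most points lie within 0.3 of 0, CXXC5 stands alone at -1.60, and the called genes of the 2-oxoglutarate list, OGDH and IDH3A, are both above 0.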

How the data were processed

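RNAseq of 4 T24 libraries (2 EV, which the labels call control, and 2 TET1-CD) was used. Per the labels, total RNA was extracted with Trizol, made into cDNA after poly(A) selection or rRNA removal, and sequenced on a HiSeq instrument. The submitters' processing notes list cutadapt 1.9.1, HISAT2 2.0.1, HTSeq 0.6.1, DESeq2 and hg19 (GRCh37). The tool that divided fragments between transcripts, and whether strand was used, are not given in the sources used here. The files hold, per transcript, expected counts (estimated fragments that need not be whole) as deposited by the authors. The deposited FPKM values were scaled by the authors to length and library size.

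Expected counts were summed per gene, rounded to whole numbers and tested with edgeR 4.0.16 in R 4.3.3 (glmQLFit and glmQLFTest, TMM, filterByExpr, no block), with Benjamini-Hochberg adjustment over all genes tested. Standard errors came from the log2 fold change and its F statistic, and 95% intervals used the fit's degrees of freedom. Transcripts were tested likewise, and transcript usage with diffSpliceDGE (Simes). Deposited FPKM values were summed per gene for levels. The scripts were tested on simulated data. TMM factors were 0.993 to 1.005, and the libraries within groups differed by more than sampling noise (chi-square per gene 6.41 in EV and 2.75 in TET1-CD).

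Named were all members and TET1, member transcripts with at least 10% of their gene's counts in any library, and up to 3 called genes a pathway list with the smallest p. The members and lists were chosen with earlier results of these data known. Alternatives were DESeq2 1.42.0, limma-voom 3.58.1, other normalizations and filters, a replicate block, FPKM with a pseudocount of 0.1 or 1, and the omission of each library. Promoter windows were taken from RefSeq (GRCh38.p14) and located on GRCh37 by exact match, and 91 of 107 member transcripts were found in GENCODE release 44 on GRCh37. Other experiments of the study were not analysed here. One marker gene is not reported here.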

Additional observations from a re-analysis of the deposited data

How the results depend on the processing

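IDH2 was called and rose in all 11 alternatives tested, whereas DNMT1 and TET2 were called in 9, UHRF1 in 7, TET3 in 3 and IDH1 in 1, and the other 4 members in none. The number of members called was 4 with all libraries and 1 to 5 when a library was left out, and it was 3 with DESeq2. Pathway genes called numbered 11, and 2 to 17 when a library was left out. Over all genes, 2865 were called with all libraries, 1739 by DESeq2, and 832 to 3779 when a library was left out. Member transcripts called numbered 0 with edgeR and 4 with DESeq2, and the cause was not tested. Members with changed transcript usage numbered 0, and 0 to 1 when a library was left out. In the 11 alternatives on counts, the sign turned for 3 members that were not called. DNMT3A had log2 values from -0.09 to 0.11 (-0.09 without EV replicate 2 and -0.05 without TET1-CD replicate 1), DNMT3B from -0.16 to 0.08 (0.07 without EV replicate 1 and 0.08 without TET1-CD replicate 2), and IDH1 from -0.04 to 0.23 (-0.04 without EV replicate 1). TET1 kept a log2 fold change of 4.93 to 5.12 without any 1 library.

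With the replicate block, 5 members were called, the additional one being TET3 (log2 -0.42, edgeR adjusted p = 0.003), while IDH3A was not (edgeR adjusted p = 0.0512). The block called 13 pathway genes and 3235 genes in all. This was 22.2% of the genes tested, beside 19.7% without the block and 11.9% with DESeq2. Same-numbered libraries had a correlation of deviations of 0.0358 over 14573 genes and of 0.709 over the 10 members. The numbers share no stated origin and were not taken as pairs. On log2(FPKM + 0.1), the value was 0.83 for IDH2, 0.13 for DNMT3A and -0.05 for TDG. Counts were low for DNMT3A and DNMT3B, at 150 to 232 a library, which limits how small a difference could be seen.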
